A study of Mus musculus with 8 samples.

Results

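Adhesion G protein-coupled receptors are a family of cell surface receptors that carry a long extracellular region in front of a bundle of membrane-spanning helices. Most of them cut themselves during synthesis at the GPCR proteolysis site, a short motif next to the membrane, and the fragments stay attached to each other. Ligands on neighbouring cells or in the matrix bind the outer fragment, and its movement or loss can expose a tethered peptide that activates the receptor. In the gut wall, members of the family are known from epithelium, macrophages, endothelium, glia and mesenchymal cells.

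The members were the genes of the count table whose symbol begins with Adgr followed by a letter, and 28 of 53801 genes fell under this rule. They are 27 receptor genes in subfamilies A, B, D, E, F, G, L and V and the pseudogene Adgrd2-ps. The Celsr genes, which belong to the same family by structure, do not carry the prefix and were counted with their partners. The data are 8 bulk RNA-seq libraries of small-intestinal stromal cells from LTβR-YFP mice, sorted as CD45-negative and CD31-negative and divided by YFP, a yellow fluorescent protein. There were 4 libraries of YFP+ cells and 4 of YFP- cells, all from mice of the LTβR-YFP genotype. Age, sex and strain, how the YFP is driven, and whether the replicates were separate animals or pools were not stated in the labels used here. The p-values therefore speak only to the scatter among these libraries, part or all of which may be technical. No group of cells from unlabelled mice was analysed here.

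The labels of the 8 samples conflict. The sample titles give the YFP sign opposite to that in the description, the genotype and the names of the count columns. Groups were taken from the description, and each direction given here would be the opposite if the titles held instead. Ltbr, the lymphotoxin beta receptor gene, had 57.2, 55.4, 55.9 and 58.2 CPM in YFP+ libraries 1 to 4, against 57.1, 42.5, 56.8 and 53.2 CPM in YFP- libraries 1 to 4 (log2 fold change 0.11, SE 0.10, edgeR quasi-likelihood test, adjusted p = 0.654). CPM are counts per 1000000 counts of a library's TMM-scaled total. These Ltbr values do not show which label is right.

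Totals ran from 23404630 to 29829232 counts in YFP+ libraries, against 23272858 to 28688906 in YFP- libraries, and 16354 genes passed the filter on low counts. Of these, 150 were higher and 547 lower in YFP+ cells at an adjusted p below 0.05 (edgeR quasi-likelihood test), and the median log2 fold change over all genes was 0.00. Fibroblast markers were abundant in every library, with Col1a1 at 8453 CPM in YFP+ cells and 10046 CPM in YFP- cells on average and Col1a2 at 6258 and 7386 CPM. Lists of haematopoietic and endothelial markers, cells that the sort should remove, were low by comparison. The 13 haematopoietic marker names summed to 47.9 to 334 CPM in YFP+ libraries, against 82.2 to 293 CPM in YFP- libraries, and were led by the plasma cell genes Igha and Jchain. The 12 endothelial markers summed to 47.5 to 59.9 CPM in YFP+ libraries, against 67.2 to 98.1 CPM in YFP- libraries. In bulk samples, fewer cells of a type and less RNA per cell cannot be told apart.

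Of the 28 members, 15 were expressed, meaning a mean of at least 1 CPM over all 8 libraries. The last member inside this threshold was Adgre1 at 1.03 CPM and the first outside was Adgrb1 at 0.627 CPM. With 0.5 CPM as the threshold 18 members were expressed, and with 2 CPM 13 were. The filter on low counts kept 20 members for testing, namely the 15 expressed ones and Adgrg7, Adgrl4, Adgrf2, Adgrb1 and Adgrg3. The other 8 were not tested. Adgre4, Adgrg4, Adgrg5, Adgra1, Adgrf4, Adgrf1 and Adgrf3 had between 6 and 59 counts over all 8 libraries together. Adgrd2-ps had 0 counts in every library, and the limit that a count of 0 allows, 3 counts, was 0.0983 to 0.133 CPM per library.

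Levels of different genes were compared per kilobase of exon (RPKM). In YFP+ cells Adgre5 stood first at 57.4 ± 7.13 RPKM (SD, n = 4), above Adgra2 at 25 ± 2.37, Adgrl3 at 24.6 ± 3.11 and Adgrl1 at 23.5 ± 1.75 RPKM, and the last 3 did not differ from each other beyond their spread. In YFP- cells Adgre5 was also first at 37.4 RPKM, followed by Adgra2 at 24.5, Adgrd1 at 19.7, Adgrl1 at 18.8 and Adgrl3 at 16.5 RPKM. The ranges of the last 3 overlapped each other. Adgrl2 had 11 RPKM in YFP+ cells and 11.9 in YFP- cells, and Adgra3 had 6.98 and 7.10 RPKM. The remaining expressed members averaged between 0.112 RPKM (Adgrb3) and 1.24 RPKM (Adgrb2) over all libraries. Adgre5, Adgra2, Adgrl1, Adgrl3, Adgrd1 and Adgrl2 together made up 92.8% to 93.8% of the family's summed RPKM in YFP+ libraries, against 89.5% to 91.0% in YFP- libraries. Within this sum Adgre5 took 30.6% to 37.5% in YFP+ libraries, against 23.9% to 28.9% in YFP- libraries, while Adgrd1 took 6.52% to 8.62%, against 12.5% to 14.9%. The ranges of these shares did not overlap between YFP+ and YFP- libraries.

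**Figure D1:**
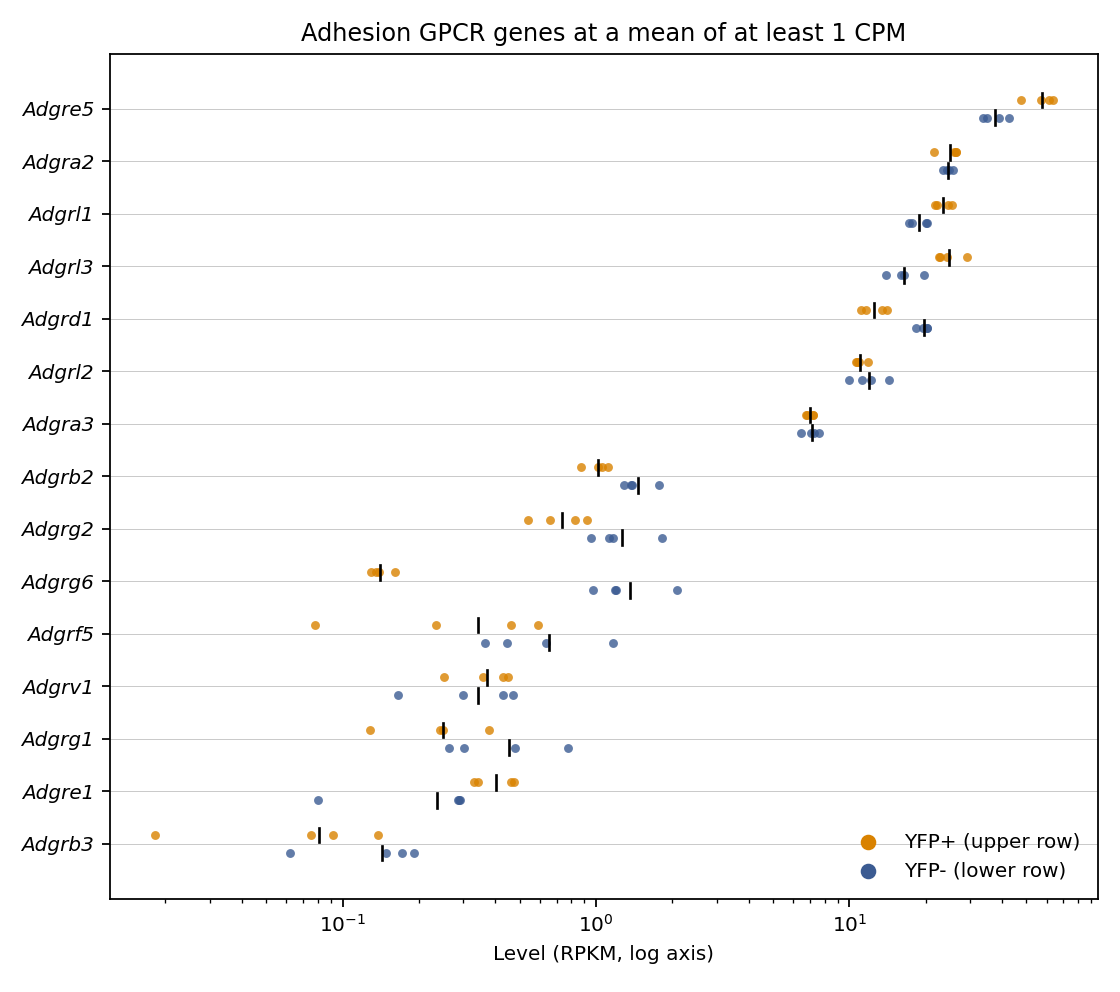
Levels of the 15 expressed adhesion receptor genes in each library, as RPKM on a log axis, with YFP+ libraries in the upper row and YFP- libraries in the lower row of each gene, a black tick at each group's mean, and genes ordered by mean level. Adgre5 lies at the top in both groups, and Adgrg6 shows the widest gap, with YFP+ libraries at 0.129 to 0.161 RPKM and YFP- libraries at 0.97 to 2.08 RPKM.

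The coding bases around the proteolysis site are shown for the 5 members that changed between YFP+ and YFP- cells. They are also shown for Adgrl2, the expressed latrophilin that did not pass the test. The site was chosen because most members of the family, but not all, carry a match to its motif. The sequences were read from GENCODE M21 transcripts (GRCm38), 5′ to 3′ on the coding strand, and each spans 48 bases. Capitals mark the 9 bases of the 3 codons at the cut.
Adgre5: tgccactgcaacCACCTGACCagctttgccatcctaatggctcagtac
Adgrl1: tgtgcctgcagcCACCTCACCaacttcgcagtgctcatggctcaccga
Adgrl3: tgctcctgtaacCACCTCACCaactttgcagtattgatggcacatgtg
Adgrl2: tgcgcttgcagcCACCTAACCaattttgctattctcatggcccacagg
Adgrd1: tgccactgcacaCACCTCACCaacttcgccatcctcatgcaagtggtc
Adgrg6: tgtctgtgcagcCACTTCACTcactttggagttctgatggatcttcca
The capitals read His-Leu-Thr in all of these except Adgrg6, where they read His-Phe-Thr. The bases are exonic and coding in each gene. They lie in exon 13 of 20 of Adgre5 (8:83725901-83725909, minus strand), exon 14 of 23 of Adgrl1 (8:83934006-83934014, plus strand), exon 15 of 25 of Adgrl3 (5:81694583-81694591, plus strand), exon 16 of 26 of Adgrd1 (5:129171885-129171893, plus strand) and exon 18 of 25 of Adgrg6 (10:14431624-14431632, minus strand). Of the 48 bases, Adgrl1 shared 37 with Adgrl2 and 35 with Adgrl3, and Adgrd1 shared 35 with Adgre5. Adgrg6 shared 34 with Adgrl1, 28 with Adgre5 and 27 with Adgrd1.

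The residues searched for were Cys, any residue, Cys, any residue, His, Leu and then Ser or Thr, read in frame in 1 transcript per gene. They were found in 16 of 27 members with a coding sequence (59.3%) and in 3 of 21533 other protein-coding genes (0.0139%), among them the polycystin relatives Pkd1l2 and Pkd1l3. A wider form, which also takes Arg for His and any residue in place of Leu and asks for Phe or Tyr after one more residue, was found in 21 of 27 members (77.8%) and in 9 of the other genes (0.0418%), Celsr2 among them. Under the wider form Adgrb1 and Adgrb3 read Arg-Leu-Ser, Adgrg7 His-Thr-Thr and Adgrv1 His-Met-Ser. Neither form was found in Adgra1, Adgra2, Adgra3, Adgre1, Adgrf2 or Adgrf4. A match describes these letters and does not show that a protein is cut.

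Between YFP+ and YFP- cells, 3 members were higher (Adgre5, Adgrl3 and Adgrl1) and 2 were lower (Adgrd1 and Adgrg6) of 20 tested, and all 5 belonged to the 15 expressed members. Over all genes tested 4.26% were called, 0.917% higher and 3.34% lower (edgeR quasi-likelihood test, adjusted p below 0.05). The median log2 fold change was -0.58 over the tested members and -0.12 over the expressed ones. With the replicate number as a block, 3 members were higher and 4 lower, against 11.5% of all genes called, 3.65% higher and 7.85% lower. The CPM of YFP+ and YFP- libraries did not overlap for 8 of the 20 tested members, against 9.64% of all genes tested. The authors' deposited table gives 6 members an adjusted p below 0.05, 3 higher and 3 lower, which are these 5 and Adgrf5. The deposited adjusted p of Adgrf5 was 0.0277. DESeq2 gave 0.0279 with the replicate block and 0.568 without it, so the deposited calls are not from a test like the edgeR one without a block. For Adgre5 the deposited adjusted p was 1.19e-21, against 1.2e-21 from DESeq2 with the block and 2.38e-06 without it. For Adgrl3 it was 0.00312, against 0.00313 and 3.33e-05. The deposited values thus lay close to those of DESeq2 with the replicate block. Summed over the 28 members, the family reached 1348 ± 19.9 CPM in YFP+ cells and 1184 ± 56.5 CPM in YFP- cells (SD, n = 4 each).

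**Figure D2:**
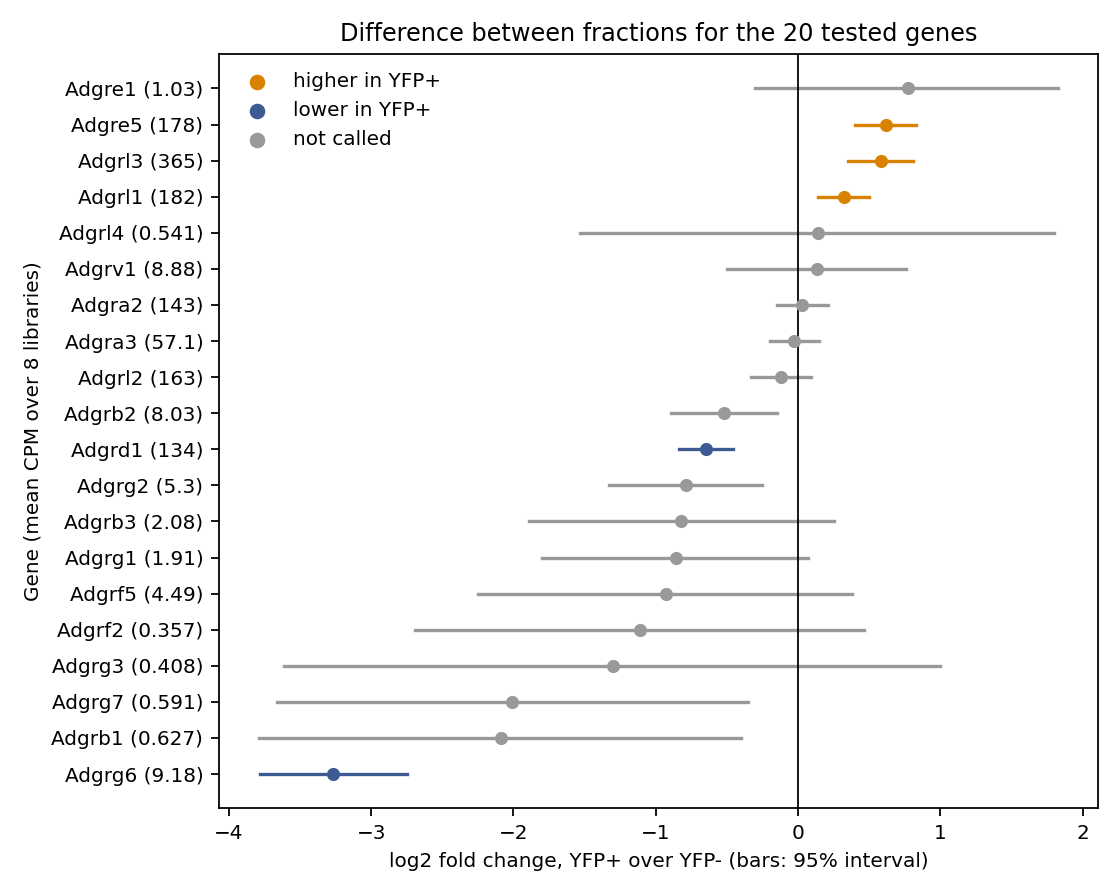
Log2 fold change of YFP+ over YFP- for each tested adhesion receptor gene with its 95% interval from edgeR, called members in colour. Adgre5, Adgrl3 and Adgrl1 lie right of 0 and Adgrd1 and Adgrg6 left of it, with Adgrg6 at -3.27, and the intervals widen for members with few counts.

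Adgre5, known as CD97, is a receptor of leukocytes, smooth muscle and mesenchymal cells that binds the complement regulator CD55 and the matrix, and it was higher in YFP+ cells. Its gene (ENSMUSG00000002885) lies at 8:83723251-83741326 on the minus strand of GRCm38. It had 229.9, 214, 239.9 and 179 CPM in YFP+ libraries 1 to 4, against 146, 131, 159.8 and 126 CPM in YFP- libraries 1 to 4. Every YFP+ library lay above every YFP- library. The fold was 1.53 (log2 fold change 0.62, SE 0.10, 95% interval 0.40 to 0.83, edgeR quasi-likelihood test, adjusted p = 0.00162). The exons of Ddx39 on the opposite strand cover 895 of its 3757 exon bases (23.8%), and the strand setting of the counting is not given in the sources used here. Ddx39, an RNA helicase gene, had 20.8 CPM in YFP+ cells and 20.4 CPM in YFP- cells (log2 fold change 0.03, edgeR adjusted p = 0.949).

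Adgre1, the other expressed member of subfamily E and a macrophage marker in the mouse, was near the threshold of expression. It had 1.49, 1.07, 1.54 and 1.11 CPM in YFP+ libraries, against 0.928, 0.921, 0.259 and 0.943 CPM in YFP- libraries. The groups did not overlap, but the difference did not pass the test (log2 fold change 0.77, 95% interval -0.30 to 1.83, edgeR adjusted p = 0.524).

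Latrophilins are receptors that bind teneurins and FLRT proteins on neighbouring cells, and 2 of the 4 genes of subfamily L were higher in YFP+ cells. Adgrl3 (ENSMUSG00000037605, 5:81020138-81825133, plus strand) had 429.7, 399, 403 and 517 CPM in YFP+ libraries 1 to 4, against 248, 349, 284 and 291 CPM in YFP- libraries 1 to 4. The groups did not overlap, and YFP- library 2 came nearest to the YFP+ libraries. The fold was 1.49 (log2 fold change 0.58, SE 0.11, 95% interval 0.35 to 0.81, edgeR quasi-likelihood test, adjusted p = 0.00516). With the replicate block the edgeR adjusted p of Adgrl3 was 0.0212. With 1 pair left out of the block fit it ran from 9.16e-09 without pair 2 to 0.0421 without pair 3. Adgrl1 (ENSMUSG00000013033, 8:83900105-83941954, plus strand) had 218, 191, 211 and 187 CPM in YFP+ libraries, against 173, 151, 174 and 148 CPM in YFP- libraries. Again no YFP- library reached the lowest YFP+ library. Its fold was 1.25 (log2 fold change 0.32, SE 0.09, 95% interval 0.14 to 0.50, edgeR quasi-likelihood test, adjusted p = 0.0445). This call lay near the threshold: without YFP+ library 1 or 3, or YFP- library 2, 3 or 4, the edgeR adjusted p lay between 0.0594 and 0.15, with the log2 fold change between 0.28 and 0.37 over all such fits. With the replicate block the edgeR adjusted p of Adgrl1 was 0.000131, and at most 0.00316 with 1 pair left out.

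Adgrl2, the latrophilin closest to Adgrl1 in the printed bases, overlapped between the groups. It had 150.3, 168, 155 and 152 CPM in YFP+ libraries, against 142, 204, 158 and 173 CPM in YFP- libraries (log2 fold change -0.12, 95% interval -0.33 to 0.09, edgeR adjusted p = 0.636). Adgrl4, which is best known from endothelium, was below the expression threshold at 0.41, 0.0822, 1.34 and 0.416 CPM in YFP+ libraries, against 1.06, 0.586, 0.216 and 0.218 CPM in YFP- libraries. Summed, the 4 genes of subfamily L reached 757 to 856 CPM in YFP+ libraries, against 564 to 705 CPM in YFP- libraries. Genes on the opposite strand share a part of the exon bases of Adgrl1, Adgrl3 and Adgrl2. Gm10644 covers 12.9% of those of Adgrl1 and had 4.95 CPM in YFP+ cells and 3.69 CPM in YFP- cells, and Gm16054 covers 8.91% of those of Adgrl3 and had 0.395 and 0.334 CPM. Gm43573 covers 1.42% of those of Adgrl2 and had 1.37 CPM in YFP+ cells and 1.95 CPM in YFP- cells.

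Latrophilin ligands of the FLRT family, which are membrane proteins with leucine-rich repeats, were lower in YFP+ cells. Flrt1 had 1.38, 0.864, 0.655 and 1 CPM in YFP+ libraries, against 2.92, 5.44, 4.15 and 3.95 CPM in YFP- libraries (log2 fold change -2.07, SE 0.34, edgeR adjusted p = 0.00167). Flrt3 averaged 11 ± 2.13 CPM in YFP+ cells and 23.3 ± 5.24 CPM in YFP- cells (log2 fold change -1.09, SE 0.18, edgeR adjusted p = 0.00167). Flrt2, the most abundant of the 3, averaged 31.5 ± 7.83 CPM in YFP+ cells and 56.9 ± 4.94 CPM in YFP- cells (log2 fold change -0.85, SE 0.15, edgeR adjusted p = 0.00348). For each of the 3 genes the highest YFP+ library lay below the lowest YFP- library. The teneurins did not pass the test. Tenm3, a transmembrane ligand of latrophilins, had 593, 623, 557 and 636 CPM in YFP+ libraries, against 536, 785, 618 and 573 CPM in YFP- libraries (log2 fold change -0.06, edgeR adjusted p = 0.853). Tenm4 had 65.5, 34.8, 47 and 58.6 CPM in YFP+ libraries, against 41.3, 26.9, 35.7 and 37.2 CPM in YFP- libraries. Its log2 fold change was 0.55 with an edgeR adjusted p of 0.181, and of 8.61e-05 with the replicate block.

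**Figure D3:**
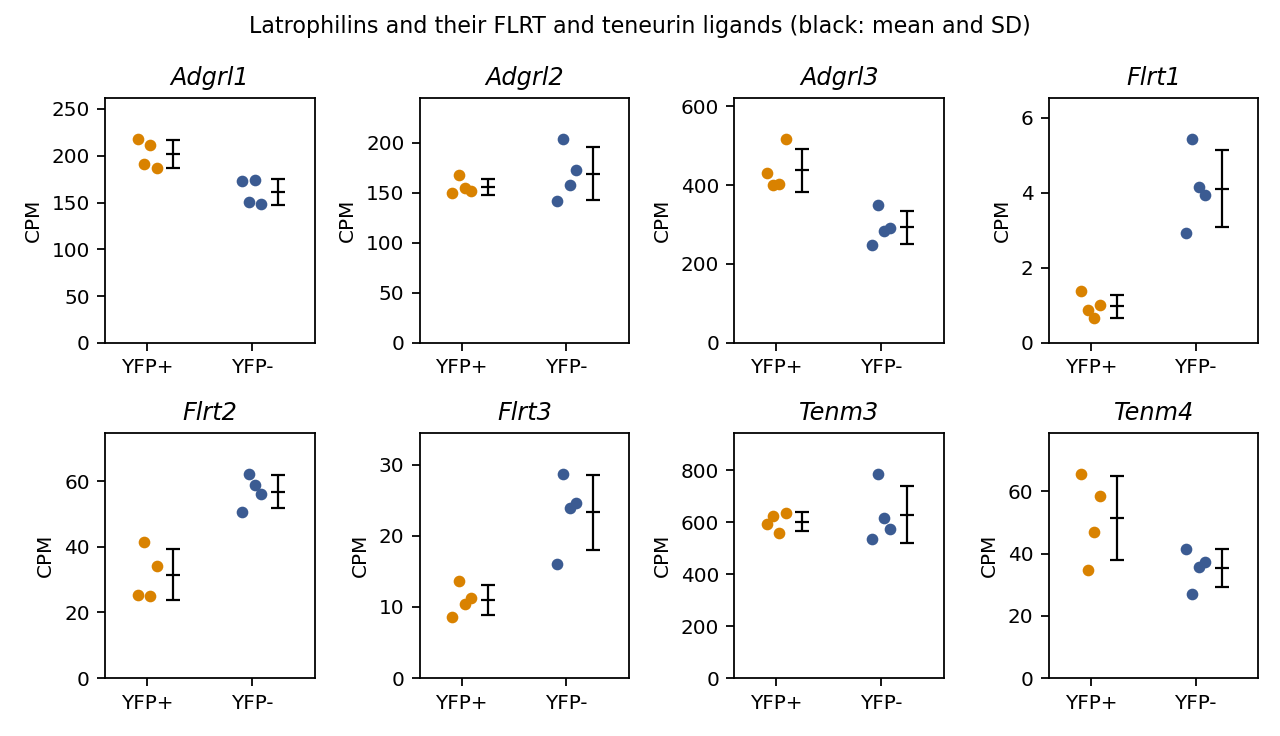
CPM of the latrophilin genes and of their FLRT and teneurin ligands in each library, YFP+ left of YFP-, with the mean and SD beside the points. Adgrl1 and Adgrl3 are higher in all 4 YFP+ libraries, Flrt1, Flrt2 and Flrt3 are lower in all 4, and Adgrl2 and Tenm3 overlap between the groups.

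Adgrd1, known as GPR133, is a receptor coupled to the stimulatory G protein, for which PTK7 and PLXDC2 have been described as binding partners. It was lower in YFP+ cells. Its gene (ENSMUSG00000044017, 5:129096750-129204599, plus strand) shares no exon bases with another annotated gene. It had 92.5, 117, 96.1 and 111 CPM in YFP+ libraries 1 to 4, against 163, 169, 153 and 169 CPM in YFP- libraries 1 to 4. The groups were well apart, with the highest YFP+ library below the lowest YFP- library. The level was lower by a factor of 1.57 (log2 fold change -0.65, SE 0.09, 95% interval -0.84 to -0.46, edgeR quasi-likelihood test, adjusted p = 0.000353). Plxdc2, a membrane protein first described in tumour endothelium, was also lower, at 219, 219.6, 223 and 287 CPM in YFP+ libraries 1 to 4, against 304, 338, 340.1 and 423 CPM in YFP- libraries 1 to 4 (log2 fold change -0.57, SE 0.11, edgeR adjusted p = 0.00745). Its groups did not overlap. Ptk7, a Wnt co-receptor of planar polarity, had 134 to 157 CPM in YFP+ libraries, against 124 to 127 CPM in YFP- libraries. Its difference did not pass the test (log2 fold change 0.21, edgeR adjusted p = 0.146) and did with the replicate block (adjusted p = 0.0163).

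Adgrg6, known as GPR126, is required for Schwann cells to myelinate axons and binds type IV collagen, laminin-211 and the prion protein. It differed most between YFP+ and YFP- cells among the 20 tested members by the size of its log2 fold change. Its gene (ENSMUSG00000039116) lies at 10:14402583-14545659 on the minus strand. It had 53, 40, 48 and 49 counts in YFP+ libraries 1 to 4, against 330, 608, 340 and 327 counts in YFP- libraries 1 to 4. In CPM this was 1.97, 1.64, 1.57 and 1.7 in YFP+ libraries, against 14.6, 25.5, 14.7 and 11.9 in YFP- libraries. YFP+ libraries were all low and close together, and YFP- library 2 was the highest. The level was lower by a factor of 9.64 (log2 fold change -3.27, SE 0.24, 95% interval -3.78 to -2.75, edgeR quasi-likelihood test, adjusted p = 6.94e-07). Without YFP- library 2 the log2 fold change was -2.98 (edgeR adjusted p = 2.67e-07). The antisense gene Gm46212 covers 3.61% of its exon bases and had 0.0466 CPM in YFP+ cells and 0.172 CPM in YFP- cells.

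Markers of enteric glia and Schwann cells were lower in the same libraries. Of 12 such genes, 10 were lower and 0 higher in YFP+ cells (edgeR adjusted p below 0.05), where 3.34% of all genes tested were lower. None of the 12 was at 0 in all libraries. Their summed level was 17.3, 17.3, 19 and 12.7 CPM in YFP+ libraries 1 to 4, against 175, 262, 159.6 and 159.5 CPM in YFP- libraries 1 to 4. The YFP+ mean was 0.0878 of the YFP- mean for this sum and 0.103 for Adgrg6. The 2 most abundant genes of the list were Cdh19, a cadherin, at 1.71 CPM in YFP+ cells and 46.8 CPM in YFP- cells, and Kcna1, a potassium channel, at 0.622 and 27.2 CPM. Sox10, the transcription factor that defines enteric glia, was named after its values were seen and had 2.76 ± 0.645 CPM in YFP+ cells and 13.9 ± 3.25 CPM in YFP- cells. The part of these cells in the difference in Adgrg6 was not tested.

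**Figure D4:**
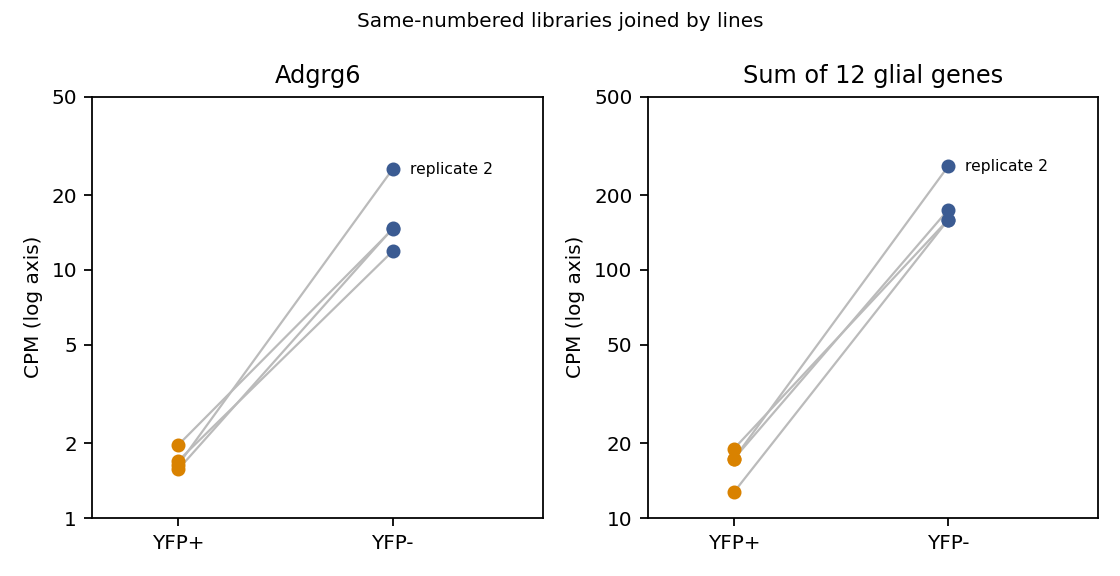
CPM of Adgrg6 (left) and summed CPM of 12 markers of enteric glia and Schwann cells (right) in each library, on log axes, with YFP+ left of YFP- and lines joining libraries of the same number. The YFP+ libraries lie at 1.57 to 1.97 CPM of Adgrg6 and 12.7 to 19 CPM of glial markers, the YFP- libraries at 11.9 to 25.5 CPM and 159.5 to 262 CPM, and YFP- library 2 is the highest in both panels.

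The collagen and laminin ligands of Adgrg6 were abundant in both groups. Col4a1 and Col4a2, the chains of type IV collagen, had log2 fold changes of 0.26 (edgeR adjusted p = 0.12) and 0.20 (edgeR adjusted p = 0.299), and with the replicate block adjusted p of 0.000147 and 0.00186. Lama2, a laminin chain, had 1653 to 2266 CPM in YFP+ libraries, against 1915 to 2479 CPM in YFP- libraries (log2 fold change -0.13, edgeR adjusted p = 0.637). Prnp, the prion protein gene, is listed at 0 in all 8 libraries, and the annotation places the gene Prn over 6.19% of its exon bases on the same strand. Why Prnp is at 0 was not tested, and the 0 cannot be read as absence of its RNA.

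The other members of subfamily G were low. Adgrg2, known from the epididymis, had 4.36, 2.84, 4.85 and 3.47 CPM in YFP+ libraries, against 5.97, 6.16, 5.05 and 9.68 CPM in YFP- libraries. Its groups did not overlap, the test was not passed (log2 fold change -0.79, 95% interval -1.33 to -0.25, edgeR adjusted p = 0.107), and with the replicate block it was (adjusted p = 0.0402). With 1 pair left out of the block fit the edgeR adjusted p of Adgrg2 ran from 0.0242 to 0.305 and passed only without pair 3. Adgrg1, a receptor for type III collagen, had 2.05, 1.32, 1.34 and 0.693 CPM in YFP+ libraries, against 4.2, 2.6, 1.42 and 1.63 CPM in YFP- libraries (log2 fold change -0.86, 95% interval -1.80 to 0.07, edgeR adjusted p = 0.377). Adgrg7, known from intestinal epithelium, had 0.149, 0.123, 0.0983 and 0.554 CPM in YFP+ libraries, against 0.177, 1.17, 1.73 and 0.725 CPM in YFP- libraries (log2 fold change -2.01, 95% interval -3.66 to -0.35, edgeR adjusted p = 0.205). The 13 epithelial markers summed to 20.2 to 29 CPM in YFP+ libraries, against 44.1 to 95.3 CPM in YFP- libraries. Of 12 tested, 5 were lower and 0 higher (edgeR adjusted p below 0.05), with 6 lower under the block. At an unadjusted p below 0.05 there were 10 genes, DESeq2 called 10 and limma-voom called 2. The most abundant, Lgals4, made up a large part of the YFP+ sums. It had 15.4 CPM in YFP+ cells and 17.6 CPM in YFP- cells (log2 fold change -0.19, edgeR adjusted p = 0.534). Pigr, the next, had 1.66 and 13.1 CPM (log2 fold change -2.97, edgeR adjusted p = 0.00441). Over all genes tested, edgeR called 3.34% lower, and 7.85% under the block. The part of epithelial cells in the level of Adgrg7 was not tested.

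Subfamily A was abundant, and neither of its expressed members passed the test. Adgra2, known as GPR124, acts with Reck as a co-receptor for Wnt7 ligands. It had 153, 153, 149 and 124 CPM in YFP+ libraries, against 143, 140.0, 148 and 135 CPM in YFP- libraries (log2 fold change 0.03, 95% interval -0.15 to 0.21, edgeR adjusted p = 0.915). Adgra3 had 58.5, 58.1, 54.5 and 55.3 CPM in YFP+ libraries, against 61.8, 57.4, 58.8 and 52.4 CPM in YFP- libraries (log2 fold change -0.03, 95% interval -0.20 to 0.15, edgeR adjusted p = 0.932). The groups overlapped for both genes, and both intervals lie inside 0.21 on the log2 scale in either direction. Reck itself, a membrane-anchored inhibitor of matrix proteases, had 107 to 124 CPM in YFP+ libraries, against 125 to 150.0 CPM in YFP- libraries. Its difference did not pass the test (log2 fold change -0.30, edgeR adjusted p = 0.0537) and did with the replicate block (adjusted p = 0.0014).

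The expressed members of subfamilies B, F and V did not pass the test. Adgrb2, a brain-enriched receptor of the BAI group, had 6.85, 5.63, 7.27 and 6.62 CPM in YFP+ libraries, against 8.97, 11.5, 9.02 and 8.34 CPM in YFP- libraries. Its groups did not overlap (log2 fold change -0.52, 95% interval -0.89 to -0.15, edgeR adjusted p = 0.13). Adgrb3 had 0.335, 1.4, 1.7 and 2.56 CPM in YFP+ libraries, against 1.15, 2.76, 3.54 and 3.19 CPM in YFP- libraries (log2 fold change -0.82, 95% interval -1.89 to 0.25, edgeR adjusted p = 0.487). Adgrb1 was below the expression threshold, at 0 to 0.484 CPM in YFP+ libraries, against 0.442 to 1.42 CPM in YFP- libraries. Its log2 fold change was -2.09 (95% interval -3.79 to -0.40, edgeR adjusted p = 0.192). For Adgrb3 and Adgrb1 the ranges of the groups overlapped.

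Adgrf5, a receptor of endothelium and of the lung epithelium that controls surfactant, varied more between replicates than the more abundant members. It had 4.17, 0.699, 2.1 and 5.34 CPM in YFP+ libraries 1 to 4, against 10.6, 4.02, 3.28 and 5.73 CPM in YFP- libraries 1 to 4. The groups overlapped, but within each of the 4 same-numbered pairs the YFP+ library was the lower one. The test was not passed without the block (log2 fold change -0.93, 95% interval -2.25 to 0.38, edgeR adjusted p = 0.517) and was with it (log2 fold change -1.07, adjusted p = 0.0256). With 1 pair left out of the block fit, the edgeR adjusted p was 0.145 without pair 1, 0.144 without pair 2, 0.0649 without pair 3 and 0.00996 without pair 4. Of the 9 endothelial markers tested 1 was lower and 0 higher in YFP+ cells without the block (edgeR adjusted p below 0.05), and 3 were lower and 0 higher with it. Over all genes tested, 3.34% were lower without the block and 7.85% with it. The summed ranges of the endothelial markers, given above, did not overlap between the groups, and Tek made up a large part of each sum. The marker lower in both fits was Tek, an angiopoietin receptor and the most abundant of the list, at 27.3 CPM in YFP+ cells and 46.4 CPM in YFP- cells (log2 fold change -0.77, edgeR adjusted p = 0.0112). Plvap, a protein of endothelial fenestrae and the next in abundance, had 6.46 CPM in YFP+ cells and 9.91 CPM in YFP- cells (log2 fold change -0.62, edgeR adjusted p = 0.12, and 0.0314 with the block). The other marker lower with the block was Pecam1, the CD31 gene (edgeR adjusted p = 0.309, and 0.0267 with the block). Vwf had 9.23 CPM in YFP+ cells and 7.05 CPM in YFP- cells (log2 fold change 0.39). Tie1 and Esam also leaned higher (0.49 and 0.26), and Lyve1, Cdh5 and Kdr leaned lower (-0.25, -0.32 and -0.30). None of these was called in either fit. The part of endothelium in the level of Adgrf5 was not tested. Adgrv1, the very large receptor of the stereocilia of hair cells, had 8.94, 6.25, 10.7 and 11.2 CPM in YFP+ libraries, against 10.7, 4.1, 7.43 and 11.7 CPM in YFP- libraries (log2 fold change 0.13, 95% interval -0.50 to 0.76, edgeR adjusted p = 0.893). Adgrf2 and Adgrg3 were tested below the expression threshold and did not pass (log2 fold changes -1.11 and -1.30, edgeR adjusted p = 0.531 and 0.632).

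Among the wider set of ligands and binding partners of the family, 24 of 30 genes were tested. Of these, 0 were higher and 4 lower in YFP+ cells (edgeR adjusted p below 0.05), against 0.917% and 3.34% of all genes tested. The lower ones were Flrt1, Flrt2, Flrt3 and Plxdc2. The median log2 fold change was -0.19, against 0.00 over all genes. At an unadjusted p below 0.05 there were 11 genes, DESeq2 called 7 and limma-voom called 4. With the replicate block edgeR called 6 higher and 6 lower, against 3.65% and 7.85% of all genes tested. Cd55, the ligand of Adgre5, had 177 ± 24.4 CPM in YFP+ cells and 178 ± 12.7 CPM in YFP- cells (log2 fold change -0.01, edgeR adjusted p = 0.989). Col3a1, the type III collagen gene and ligand of Adgrg1, had 14757 to 16939 CPM in YFP+ libraries, against 17488 to 20745 CPM in YFP- libraries. Its difference did not pass the test (log2 fold change -0.23, edgeR adjusted p = 0.178) and did with the replicate block (adjusted p = 0.000868).

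Of the G proteins and effectors through which these receptors signal, 24 of 25 were tested. Of these, 0 were called in either direction (edgeR adjusted p below 0.05), against 4.26% of all genes tested. The median log2 fold change was -0.04, 5 genes had an unadjusted p below 0.05, DESeq2 called 2 and limma-voom 0. With the replicate block edgeR called 3 higher and 2 lower, against 11.5% of all genes tested. The most abundant were Arhgef12, an effector of G12 and G13 proteins, at 463 ± 25.3 CPM in YFP+ cells and 493 ± 11.2 CPM in YFP- cells (log2 fold change -0.09, edgeR adjusted p = 0.634), and Gnas, the stimulatory alpha subunit, at 475 ± 23.4 and 477 ± 5.95 CPM (log2 fold change -0.00, edgeR adjusted p = 0.991).

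The Celsr genes are adhesion receptors that organise planar cell polarity together with the Frizzled, Vangl and Dishevelled proteins. All 14 genes of this list were tested, and 2 were higher and 1 lower in YFP+ cells (edgeR adjusted p below 0.05), with a median log2 fold change of -0.07 and with 3 higher and 1 lower under the replicate block. Over all genes tested, 0.917% were higher and 3.34% lower, and 3.65% and 7.85% under the block. Vangl1, a core polarity membrane protein, had 158, 162, 157 and 138 CPM in YFP+ libraries, against 109, 95.9, 111 and 102 CPM in YFP- libraries (log2 fold change 0.55, SE 0.08, edgeR adjusted p = 0.000658). Fat4, a giant cadherin, averaged 382 ± 60.3 CPM in YFP+ cells and 265 ± 42.7 CPM in YFP- cells (log2 fold change 0.53, SE 0.13, edgeR adjusted p = 0.0307). Celsr2 had 1.86, 2.02, 2.95 and 2.18 CPM in YFP+ libraries, against 4.77, 9.92, 3.15 and 4.82 CPM in YFP- libraries (log2 fold change -1.33, SE 0.33, edgeR adjusted p = 0.0315). Celsr1 and Celsr3 averaged below 1 CPM in both groups and did not pass the test. The calls of Fat4 and Celsr2 lay near the threshold. Fat4 lost its call without YFP+ library 2 or 3 or YFP- library 1, 2 or 4 (edgeR adjusted p up to 0.102), with log2 fold changes of 0.46 to 0.64 over all fits without 1 library. With the replicate block its edgeR adjusted p was 4.87e-08, and at most 1.67e-05 with 1 pair left out. Celsr2 lost its call without YFP+ library 1, 2 or 4 or YFP- library 2 or 4, and without YFP- library 2 its log2 fold change was -0.90 (edgeR adjusted p = 0.15). With the block its edgeR adjusted p was 0.00873, and 0.143 without pair 2.

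The other marker lists are given as sums and counts, with no test of a list. Smooth muscle markers summed to 502 to 1035 CPM in YFP+ libraries, against 293 to 584 CPM in YFP- libraries, with 3 of 9 higher (Myocd, Lmod1 and Synpo2) and 0 lower, and with 8 higher and 0 lower under the replicate block. The most abundant were Myh11, at 282 CPM in YFP+ cells and 161 CPM in YFP- cells (edgeR adjusted p = 0.499, and 0.0214 with the block), and Acta2, at 169 and 98.3 CPM (edgeR adjusted p = 0.453, and 1.64e-09 with the block). Mural markers summed to 1530.5 to 1733 CPM in YFP+ libraries, against 1378 to 1499.7 CPM in YFP- libraries, with 1 of 8 higher (Cspg4) and 2 lower (Steap4 and Mcam), and with 2 higher and 2 lower under the block. The most abundant, Rgs5 and Pdgfrb, were not called (edgeR adjusted p = 0.733 and 0.136), and Pdgfrb was called higher with the block (0.00142). Fibroblast markers summed to 20769 to 22263 CPM in YFP+ libraries, against 23129.9 to 27228 CPM in YFP- libraries, with Dcn and Lum lower and 0 of 8 higher, and with 5 lower and 0 higher under the block. Markers of interstitial cells of Cajal summed to 200.2 to 290.3 CPM in YFP+ libraries, against 228 to 384 CPM in YFP- libraries, with 1 of 5 lower, and with 1 higher and 2 lower under the block. Most of this sum was Prkg1 (192 CPM in YFP+ cells and 268 CPM in YFP- cells) and Etv1 (43 and 34.7 CPM). Kit had only 0.487 and 1.71 CPM and Ano1 1.49 and 2.19 CPM. Enteric neuron markers summed to 6.24 to 7.36 CPM in YFP+ libraries, against 5.22 to 22.6 CPM in YFP- libraries, with 1 of 4 tested lower, 2 lower under the block, and Tubb3 at 0 in all libraries. Mesothelial markers summed to 4.55 to 4.98 CPM in YFP+ libraries, against 7 to 9.21 CPM in YFP- libraries, with none of 3 tested called by edgeR, 1 at an unadjusted p below 0.05 and 1 called by DESeq2. The calls in these lists are edgeR's at an adjusted p below 0.05 unless another tool is named. Over all genes tested, 0.917% were higher and 3.34% lower, and 3.65% and 7.85% under the block. The part of these cell types in the levels of Adgre5, Adgrl1, Adgrl3 and Adgrd1 was not tested.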

How the data were processed

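Bulk RNA-seq of 8 sorted stromal libraries was analysed. The library kit was a strand-preserving one for low inputs, per the labels' protocols. Per the submitters' processing notes, the tools were DESeq2, featureCounts 2.0.1, STAR 2.7.3a and cutadapt 3.4, and the build was GRCm38 (mm10). The authors' deposited table holds whole-number counts per gene and library, not normalised, with their log2 fold change and adjusted p-value. Its 8 normalised columns were not used.

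The tests were run with edgeR 4.0.16 under R 4.3.3: filterByExpr (minimum count 10), TMM scaling, the robust quasi-likelihood F test, and Benjamini-Hochberg adjustment over all 16354 genes tested, threshold 0.05. SE is the absolute log2 fold change over the square root of F. RPKM used GENCODE M21 exon-union lengths (GRCm38), which held 53706 of the 53801 IDs. The procedure without a block was tested on simulated data. Those counts were drawn without pairing of the replicates, so the simulation does not cover paired libraries. Alternatives were other scalings and filters, DESeq2 1.42.0, limma 3.58.1 (voom), libraries left out, and the replicate number as a block. The precision follows from totals of 23272858 to 29829232 counts, and limits for a count of 0 cover counting error only.

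No pair of replicates was alike within sampling noise. Deviations from the group means, over 5258 genes, correlated at 0.60, 0.64, 0.38 and 0.57 between same-numbered libraries and at -0.42 to 0.05 between others, so the numbers were taken to pair the samples, from the data, since no label says what they share. The edgeR tests printed without mention of the block left this pairing out, and a member that did not pass them can pass with the block.

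The members, gene lists and alternatives were chosen with earlier results of these data known. The text names every member, those called or at 1 CPM or more with each library's value, and from each list of partners at most 4 called genes each way, ranked by p, or failing that the 2 genes with the highest level. From the marker lists it took the 2 highest, named here where they stand beside a result. Other genes named are known ligands and partners of a member or further markers of a list, and were chosen after their values were seen.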

Additional observations from a re-analysis of the deposited data

Results flagged for a closer look

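Among 86 sets of 4 replicate values, 8 held a library standing apart from the other 3, where chance gives about 1 in 20, or 4.3. Adgre1 was low in YFP- library 3 (0.259 CPM, next 0.921). Adgrg7 was high in YFP+ library 4 (0.554 CPM, next 0.149), and Adgra2 was low there (124 CPM, next 149). The same library was high for Plxdc2 (287 CPM, next 223) and low for the summed fibroblast markers (20769 CPM, next 22082). YFP- library 2 was high for the summed markers of enteric glia and Schwann cells (262 CPM, next 175) and of enteric neurons (22.6 CPM, next 7.12). YFP- library 4 had the largest YFP- total (28688906 counts, next 23894251).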

How the results depend on the processing

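Adgre5, Adgrl3, Adgrd1 and Adgrg6 kept direction and call under every alternative run, with log2 fold changes of 0.56 to 0.70, 0.49 to 0.68, -0.71 to -0.59 and -3.39 to -2.98 when 1 library was left out. Adgrl1 kept its direction and lost its call in 5 of these fits. With the replicate block Adgrl3 was nearer the threshold than Adgrl1. The edgeR adjusted p of Adgrl3 was 0.0212 with the block and 0.0421 without pair 3, and that of Adgrl1 was 0.000131 with the block. Returning to the fits with 1 library left out, the numbers of called members were as follows. Members called higher numbered 2 to 3 and lower 2 to 2. With the replicate block 4 members were lower (Adgrg2 and Adgrf5 added), and no called member lost its call. The 2 added calls depended on single pairs: members lower numbered 2 to 3 with 1 pair left out, each of the 2 lost its call in 3 of these 4 fits, and Adgrg2 had an adjusted p of 0.0772 under DESeq2 with block. Without pair 1 in the block fit Adgrb1 was called lower instead (log2 fold change -3.22, edgeR adjusted p = 0.0431). No scaling moved the median of all genes by more than 0.02.

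Counts of calls depended on the setting. All genes higher were 272 with DESeq2, 518 with DESeq2 and block, 309 without a filter, 597 with the block, 88 to 156 with 1 library left out (88 without YFP+ library 3, 96 without YFP- library 3) and 455, 500, 331 and 431 without pair 1, 2, 3 or 4 in the block fit. All genes lower were 822, 1236, 934, 1283, 339 to 521 and 1126, 1050, 851 and 1017 in the same order. Partner genes higher were 5, 11, 5, 12, 1 to 2 and 7 to 9, against 2. Partner genes lower were 9 with DESeq2 and block, 8 without a filter, 9 with the block, 4 to 6 with 1 library and 7 to 11 with 1 pair left out, against 5.

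Signs turned for 3 uncalled members. Adgrl4 (0.14) was -0.12 with DESeq2 and block, -0.01 with limma-voom, -0.07 with the block, -0.75 to 0.75 with 1 library and -0.99 to 0.68 with 1 pair left out (-0.45 without pair 4). Adgra3 (-0.03) ran from -0.06 to 0.02 with 1 library left out and was 0.00 without pair 3, and Adgrv1 (0.13) ran from -0.09 to 0.34. The cause was not tested. Depth limits the members below 1 CPM, whose intervals were wide.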
